A study of Rattus norvegicus with 12 samples.

Results

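Neonatal rat cardiac myocytes in which p300 had been lowered by siRNA were compared with control-transfected myocytes, both after 8 h in doxorubicin (Dox), an anthracycline that poisons topoisomerase II and is known for damage to the heart. The comparison was chosen by the array titles: the 3 p300 siRNA arrays at 8 h against the 3 non-silencing (NS) arrays at 8 h, paired by their biological replicate number, which makes 6 of the 12 arrays of the series. All 14506 genes with an annotated probe set were described. Every culture came from neonatal Sprague Dawley rats, was grown with bromodeoxyuridine against fibroblasts over the first 4 days, received one of the siRNAs, and spent 48 h in serum-free medium before 1 µM Dox was given for 0 or 8 h. The remaining 6 arrays are the NS and p300 siRNA cultures at 0 h, 3 of each. Per the labels, over 90% of the cells were myocytes, so that other heart cells remained in every culture. An siRNA lowers a transcript and does not delete the gene. Drug and time in culture went together, because the untreated cultures were all taken at 0 h.

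p300, encoded by Ep300, is a lysine acetyltransferase that acetylates histones and many transcription factors. It is brought to enhancers and promoters by DNA-binding proteins such as CREB, GATA4, MEF2, SMAD proteins, p53 and NF-kB, and it acts there as a coactivator together with its close relative CBP, encoded by Crebbp. In the heart it is known as a coactivator of GATA4 and MEF2 in development and hypertrophy. The comparison asks which transcripts differ with less p300 while the cells respond to Dox.

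Ep300 (probe set 10897919, Entrez 170915) was the targeted gene and was measured first. Its level, as log2 of the deposited intensity, was 10.86, 10.72 and 10.72 on the NS arrays of experiments 1, 2 and 3 and 10.10, 9.64 and 9.80 on the p300 siRNA arrays, with no overlap. The difference of -0.92 (SE 0.0736, adjusted p = 4.48e-05, limma with the experiment as a block) left 52.9% of the NS level. At 0 h the difference was -0.95 (SE 0.0736), so the knockdown was of like size at both times. Crebbp was not past the threshold: it read 10.87, 10.67 and 10.66 on the NS arrays and 10.93, 10.69 and 10.68 on the p300 siRNA arrays, a difference of 0.03 (SE 0.0649, adjusted p = 0.859).

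**Figure D1:**
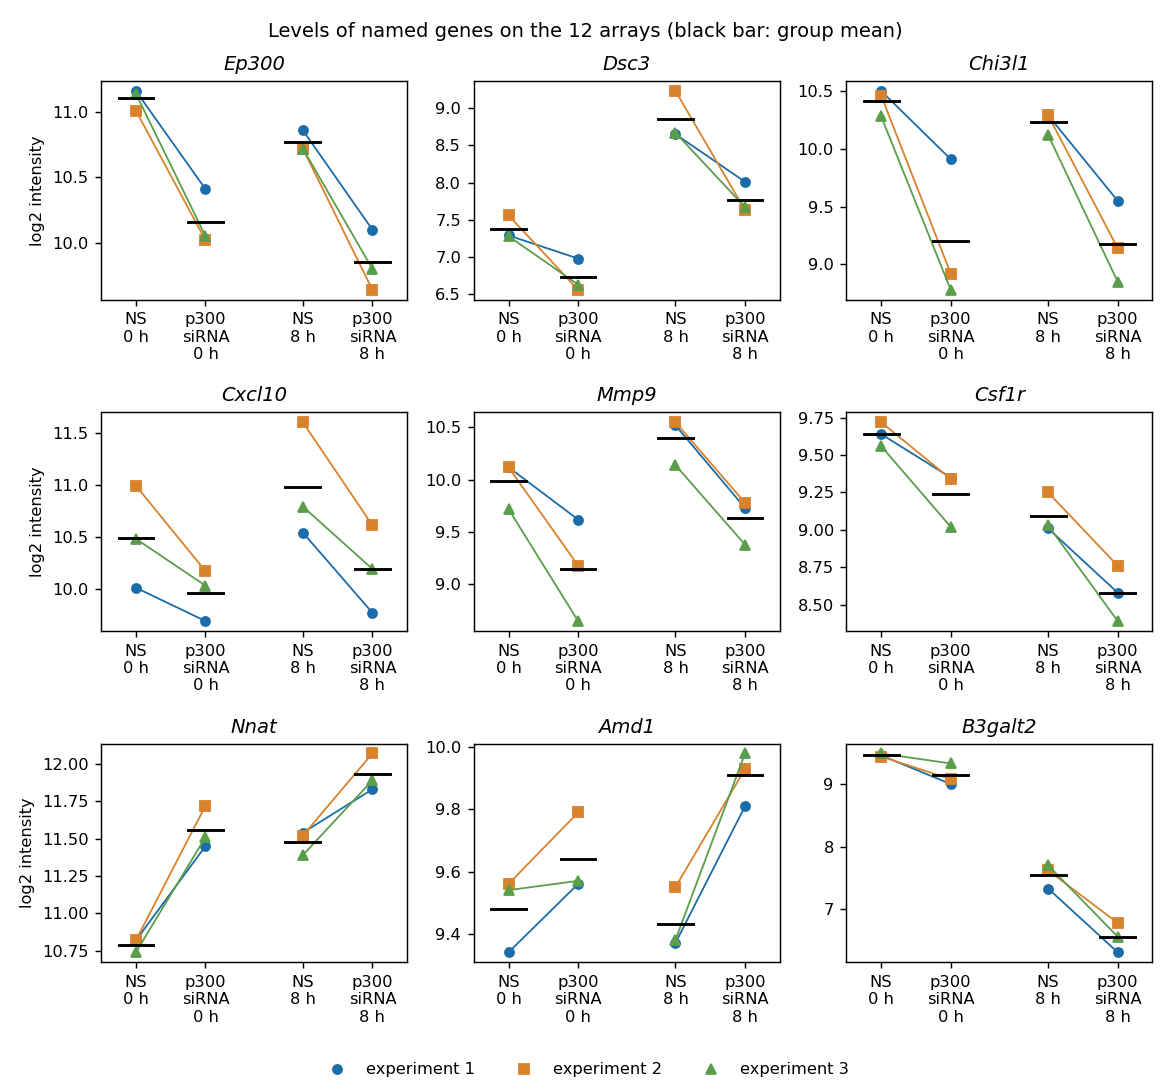
Log2 intensity (y axes, separate scale for each gene) of 9 genes on the 12 arrays, by siRNA and time. Points are arrays, lines join the 2 arrays of one experiment, and black bars are group means; Ep300, Chi3l1, Mmp9 and Csf1r lie lower with the p300 siRNA at both times in each experiment, while B3galt2 fell by 1.00 at 8 h and its difference was -0.33 at 0 h.

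After 8 h of Dox, 455 of 14506 genes (3.14%) passed an adjusted p under 0.05, which is what a called gene means here. Of these, 344 (2.37%) fell and 111 (0.765%) rose in the p300 siRNA cells. The changes were small: 47 genes fell by at least 1.5-fold and 1 rose by that much, 3 fell by at least 2-fold, the largest fall was 2.11-fold and the largest rise 1.52-fold. The median log2 change was -0.38 among the genes that fell and 0.33 among those that rose, against 0.005 over all genes. Of all 14506 genes, 6952 had a difference below 0 and 7554 above, which is the background for such counts in the lists below. All 455 had 1 sign in the 3 experiments, as had 35.0% of all genes. The NS and p300 siRNA arrays did not overlap for 239 of the 344 lower and 60 of the 111 higher genes; over all genes this held for 913 lower (6.29%) and 690 higher (4.76%).

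These counts rest on the pairing and on each of the 3 experiments, most of all on experiments 2 and 3. Without the experiment as a block 7 genes were called (0.0483%), all lower: Ep300, Dsc3, B3galt2, Cyp3a9, Cd7, Krt19 and Gas7. Without experiment 3 there were 35 calls, 33 of them among the 455. Without experiment 2 there were 157, with 113 among the 455, and without experiment 1 there were 349, with 240 among them. In all, 27 of the 455 genes passed in each of these 3 fits. Without the single NS array of experiment 3 there were 84 calls and without its p300 siRNA array 79; for experiment 2 these numbers were 183 and 203. The knockdown differences of all genes at 8 h correlated across genes with r = 0.136 between experiments 1 and 2, 0.435 between 1 and 3 and 0.256 between 2 and 3. Below, a call is said to have held where it passed in all 9 fits that left out an experiment or an 8 h array. For calls that did not hold, the experiments without which they were lost are named with the adjusted p; losses without a single array are not all given.

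The 7 genes called with and without the block were lower on every p300 siRNA array than on every NS array. Dsc3, a desmosomal cadherin, read 8.65, 9.23 and 8.67 on the NS arrays and 8.01, 7.63 and 7.67 on the p300 siRNA arrays, and its 2.11-fold fall (-1.08, SE 0.146, adjusted p = 0.00187) was the largest of the comparison. B3galt2, a galactosyltransferase of the Golgi, read 7.33, 7.62 and 7.70 against 6.31, 6.78 and 6.56 and fell by 1.00 (SE 0.0952, adjusted p = 2.26e-04). Cyp3a9, a cytochrome P450, read 6.31, 6.60 and 6.47 against 5.78, 5.61 and 5.50 (-0.83, SE 0.107). All 8 h readings of B3galt2 and Cyp3a9 were low: they lie below the median of all probe sets, which ran from 7.73 to 7.8 over the arrays. By experiment the differences were -1.02, -0.84 and -1.14 for B3galt2 and -0.54, -0.99 and -0.96 for Cyp3a9. Cd7, a surface protein of lymphoid cells, read 8.12, 8.28 and 8.01 against 7.28, 7.45 and 7.42 (-0.75), below the median level of all genes (8.57). Krt19, a keratin, fell by 0.70 and Gas7, a protein that binds the cytoskeleton, by 0.59. All 7 calls held.

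Chi3l1, a secreted protein of the chitinase family, read 10.29, 10.29 and 10.12 on the NS arrays and 9.55, 9.14 and 8.85 on the p300 siRNA arrays (-1.05, SE 0.150, adjusted p = 0.0025). Ly6c, a surface protein of myeloid cells, read 8.89, 9.59 and 9.34 against 8.23, 8.55 and 8.24 (-0.93, SE 0.140). Both genes had no overlap between the groups, and both lost the call only without experiment 3 (adjusted p = 0.0554 and 0.0527). Hjv, the BMP co-receptor hemojuvelin, read 10.02, 10.33 and 11.02 against 9.22, 9.85 and 9.95 (-0.78), and Adgrg1, an adhesion G protein-coupled receptor, read 10.79, 10.81 and 11.15 against 10.09, 10.11 and 10.19 (-0.78). Ggt1, which cleaves extracellular glutathione, fell by 0.77 and Akr1b8, an aldo-keto reductase, by 0.72. These 4 calls held, but that of Hjv was lost with the experiment as a random effect (adjusted p = 0.0822). Hsd11b1, which makes active glucocorticoid inside cells, fell by 0.71 and lost the call without experiment 3 (adjusted p = 0.0849). Ppef1, a protein phosphatase, varied most: its differences were -0.20, -1.49 and -0.63 in experiments 1, 2 and 3, and its call ended in 6 of the 9 left-out fits (adjusted p up to 0.237).

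**Figure D2:**
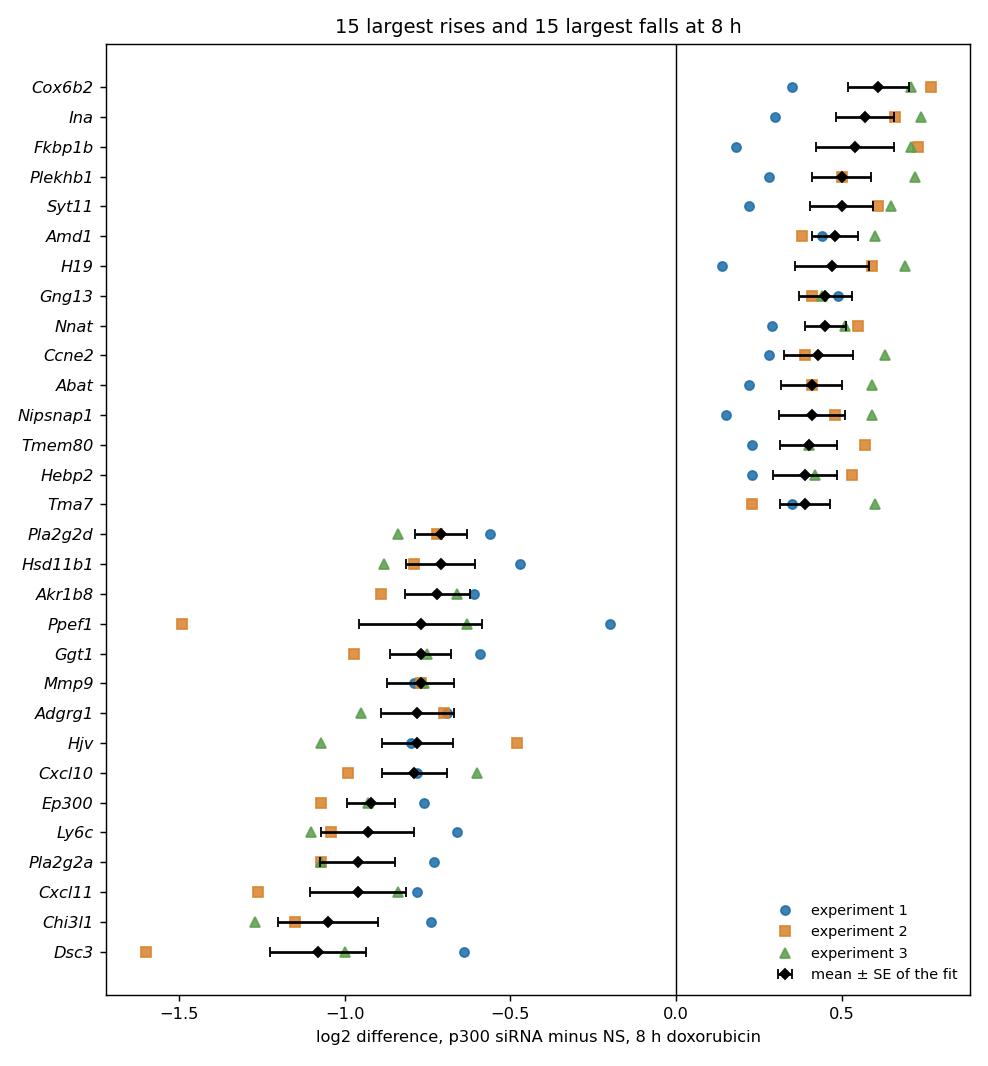
Log2 difference between p300 siRNA and NS cells at 8 h (x axis) for the 15 largest rises and 15 largest falls among called genes above the median level. Coloured points are the 3 experiments and black diamonds with bars are the fitted mean ± SE (n = 3 pairs); in experiment 1 most rises lie nearer 0 than in experiments 2 and 3, and the widest spread is that of Ppef1, from -1.49 to -0.20.

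Chemokines are secreted proteins that attract leukocytes. Of the 31 CXC and CC chemokine genes measured, a family chosen by symbol after the values were seen, 6 fell (19.4%, against 2.37% of all genes) and 0 rose. In all, 22 lay below 0 and 9 above, and the median was -0.18. Cxcl11 and Cxcl10 are ligands of CXCR3 on T cells and are induced by interferon and NF-kB. Their genes lie close to each other on rat chromosome 14, and the bases before each start site are shown with those of Pla2g2a, a secreted phospholipase, because these genes of secreted proteins fell by 0.79 to 0.96 in calls that held. The sequences are from RefSeq, build GRCr8, plus strand, 250 bases up to the start site (Cxcl10 chr14:15988816-15989065, Cxcl11 chr14:15973478-15973727, Pla2g2a chr5:156359475-156359724), with capitals for matches to the motifs searched.

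Cxcl10: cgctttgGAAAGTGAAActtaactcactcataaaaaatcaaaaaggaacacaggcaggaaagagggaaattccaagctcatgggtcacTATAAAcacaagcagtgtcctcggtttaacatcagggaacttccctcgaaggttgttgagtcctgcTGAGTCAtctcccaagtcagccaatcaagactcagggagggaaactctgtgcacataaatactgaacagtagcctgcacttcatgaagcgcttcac
Cxcl11: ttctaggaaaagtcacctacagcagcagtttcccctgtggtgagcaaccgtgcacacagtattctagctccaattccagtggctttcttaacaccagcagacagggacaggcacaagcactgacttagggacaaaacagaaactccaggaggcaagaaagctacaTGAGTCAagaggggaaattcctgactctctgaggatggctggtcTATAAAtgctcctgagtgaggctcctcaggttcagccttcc
Pla2g2a: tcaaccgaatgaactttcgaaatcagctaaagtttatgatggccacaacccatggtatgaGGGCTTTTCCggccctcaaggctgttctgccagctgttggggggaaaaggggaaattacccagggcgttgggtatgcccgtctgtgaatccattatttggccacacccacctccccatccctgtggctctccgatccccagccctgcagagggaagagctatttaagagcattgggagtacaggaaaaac

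In Cxcl10 the capitals mark the letters of an ISRE core (GAAANNGAAA), the run TATAAA and the letters of an AP-1 site (TGANTCA). In Cxcl11 they mark AP-1 letters and TATAAA, and in Pla2g2a the letters of an NF-kB site (GGGNNTTTCC). That NF-kB pattern is narrow: the runs gggaaattcc in Cxcl10 and Cxcl11 and gggaacttcc in Cxcl10 differ from it by a letter and are not marked. A sequence without NF-kB capitals may therefore still hold an NF-kB site, and the NF-kB shares below count this pattern only. TATAAA begins at position -41 from the start site in Cxcl11, near where a TATA box usually lies, but at -162 in Cxcl10, far from there. In all, 8 motifs were searched on both strands in windows that ran from 250 bases before to 50 after the start of 11950 measured genes, and 2556 genes had no window. A window was at hand for 241 of the 344 genes called lower and for 90 of the 111 called higher. The AP-1 letters stood in 14.1% of the 241 windows of genes called lower and in 6.23% of all windows. The NF-kB letters stood in 4.98% of the former and 1.72% of all, and the ISRE core in 4.56% and 3.41%. TATAAA stood in 17.0% and 11.7%, CTANNNNTAG, searched as a MEF2 pattern, in 3.73% and 3.3%, and GAGGAAGT (PU.1-type ETS) in 2.49% of both. The middle letters of CTANNNNTAG could be any base, so the pattern is loose and its share is not a share of MEF2 sites. The letters of a GATA site, AGATAA, stood in 7.88% of the windows of lower genes and 9.32% of all, and those of a CRE, TGACGTCA, in 0.83% and 2.46%. The 90 windows of genes called higher held the AP-1 letters, the NF-kB letters and CTANNNNTAG in 6.67% each. In these windows TATAAA stood in 12.2%, AGATAA in 7.78%, the ISRE core and GAGGAAGT in 1.11% each, and TGACGTCA in 0.0%. Mean GC content was 57.9% for the lower genes, 58.4% for the higher and 57.0% over all windows, and a match of letters is no measurement of binding.

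Cxcl11 read 8.28, 9.20 and 8.77 on the NS arrays and 7.50, 7.94 and 7.93 on the p300 siRNA arrays (-0.96, SE 0.144, adjusted p = 0.00319). Cxcl10 read 10.54, 11.60 and 10.79 against 9.77, 10.61 and 10.19 (-0.79, SE 0.0984, adjusted p = 0.00138): it was lower in each experiment, although the groups overlapped because experiment 2 was high under both siRNAs. Both calls held, but that of Cxcl10 was lost with the experiment as a random effect (adjusted p = 0.0648). Ccl2, which attracts monocytes, fell by 0.53 with no overlap between the groups, and Ccl7, a related ligand, fell by 0.61. Ccl6 fell by 0.64 and Ccl9 by 0.48; both are CC chemokines of rodents. These 4 calls were lost without experiment 2 (adjusted p 0.0571 to 0.0794) and without experiment 3 (0.149 to 0.201).

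The wider list of cytokines and NF-kB targets had 29 measured members, of which 4 fell (13.8%, against 2.37% of all genes) and 0 rose. None of the 29 had a difference above 0, the median was -0.24, and the medians in experiments 1 to 3 were -0.16, -0.46 and -0.20. The 4 were Cxcl10, Ccl2, Ccl7 and Il1rn, which encodes the antagonist of the IL-1 receptor and fell by 0.59 (lost without experiment 2, adjusted p = 0.0781, and without experiment 3, 0.158). Only the call of Cxcl10 passed without each experiment in turn. Vcam1, an adhesion molecule for leukocytes, had a difference of -0.54 (adjusted p = 0.0747), and Il1a one of -0.45 (adjusted p = 0.0912).

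Phospholipases A2, which release fatty acids from membrane lipids, had 15 measured genes, a family again chosen after the values were seen. Of these 5 fell (33.3%, against 2.37% of all genes) and 0 rose, while 5 lay above 0 and the median was -0.04. Pla2g2a read 9.45, 10.34 and 10.12 on the NS arrays and 8.72, 9.27 and 9.05 on the p300 siRNA arrays (-0.96, SE 0.113, adjusted p = 9.40e-04), and Pla2g2d, also secreted, read 8.89, 8.79 and 8.49 against 8.33, 8.07 and 7.65 (-0.71, SE 0.0780, adjusted p = 7.24e-04). Pla2g7, which inactivates platelet-activating factor, read 10.41, 10.66 and 10.69 against 9.70, 10.17 and 10.26 (-0.54). These 3 calls held and their groups did not overlap. Pla2g5 fell by 0.51 and was lost without experiment 3 (adjusted p = 0.0937). Pla2g4a, the cytosolic enzyme, fell by 0.38 and was lost without experiment 2 (adjusted p = 0.296), 3 (0.238) and 1 (0.0502).

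Because many of these genes are also made by leukocytes, cell type markers were measured beside them. Of 15 macrophage and leukocyte markers, 8 fell (53.3%, against 2.37% of all genes) and 0 rose; 15 of 15 lay below 0, and the median was -0.34 overall and in each of the 3 experiments. Their summed intensity ran from 14111 to 17546 on the NS arrays and from 11201 to 14019 on the p300 siRNA arrays, without overlap. RMA intensities have no zero, so absence of a marker cannot be read from them; 7 of the 15 lay above the median level of all genes. Csf1r, the receptor for the macrophage growth factor CSF1, read 9.01, 9.25 and 9.03 against 8.58, 8.76 and 8.39 (-0.52, SE 0.0768, adjusted p = 0.0031). Cd68, a lysosomal protein of macrophages, read 11.87, 11.77 and 11.53 against 11.44, 11.42 and 11.08 (-0.41). Ptprc, the leukocyte antigen CD45, fell by 0.50, Itgam, an integrin of myeloid cells, by 0.48, and Laptm5 by 0.42. Tyrobp, an adaptor of myeloid receptors, fell by 0.38, and Fcer1g, the shared chain of Fc receptors, and C1qb, a complement subunit, by 0.34 each. Cd163, a scavenger receptor, had a difference of -0.28 (adjusted p = 0.0659), C1qa one of -0.20 (0.212). No call of these 8 held: without experiment 3 their adjusted p ran from 0.0527 for Ptprc to 0.336 for C1qb, while 5 of the 8 passed without experiment 1 and 5 without experiment 2. At 0 h 7 of the 15 were called lower, where 1.99% of all genes were, and the median was -0.30.

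The other marker lists had medians from -0.16 to -0.02. Among 10 cardiac myocyte markers 0 were called and the median was -0.07; their mean level was 12.93 to 13.11 on the NS arrays and 12.78 to 13.05 on the p300 siRNA arrays. Of 13 fibroblast markers 4 fell (30.8%, against 2.37% of all genes; median -0.16): Postn, periostin, by 0.41, Fbln1, fibulin 1, by 0.31, Dcn, decorin, by 0.22, and Col1a1 by 0.16, none of which passed without experiment 2 or without experiment 3 (adjusted p from 0.105 to 0.39); Dcn did not pass without experiment 1 either (0.122). Of 11 smooth muscle and pericyte markers 1 fell (9.09%, against 2.37%): Cspg4, by 0.38, lost without each experiment in turn. None of 10 endothelial markers (median -0.11) and none of 6 erythroid markers (median -0.08) was called. In these bulk samples fewer cells of a type and less RNA per cell cannot be told apart, and the part that macrophage or fibroblast RNA has in the falls of chemokines, phospholipases, complement and matrix genes was not tested.

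**Figure D3:**
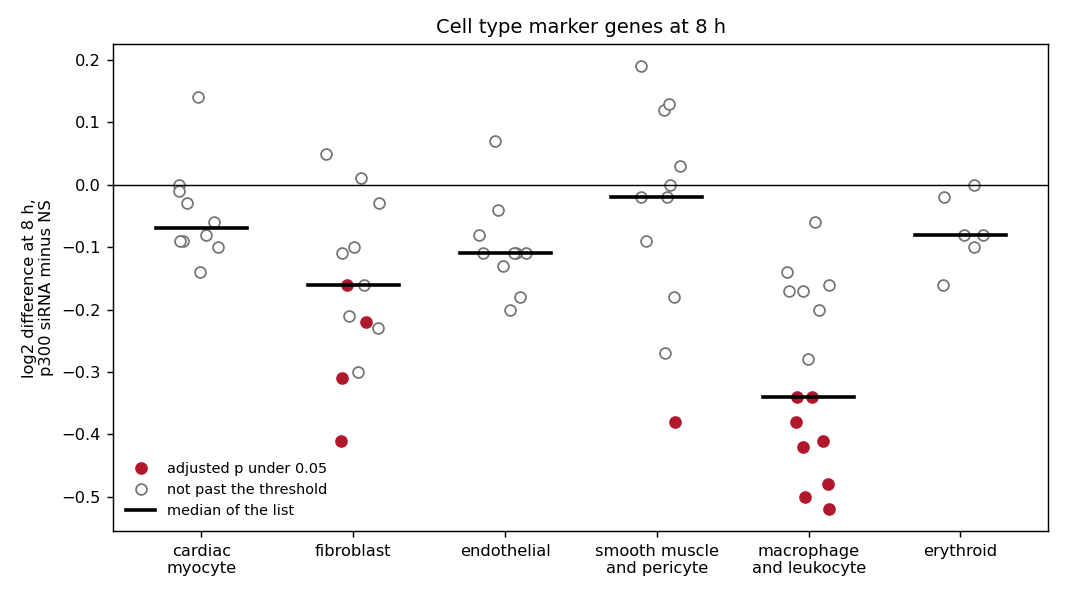
Log2 difference between p300 siRNA and NS cells at 8 h (y axis) for each marker gene of 6 cell types. Filled points passed the threshold, open points did not, and black lines are list medians; the macrophage and leukocyte markers all lie below 0 with a median of -0.34, and the myocyte markers lie around -0.07.

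Complement, Fc gamma receptor and integrin genes were also measured, as families chosen after the values were seen. Of 19 complement components and receptors 6 fell (31.6%, against 2.37% of all genes) and 0 rose, while 4 lay above 0 (median -0.19). C3ar1, the receptor for the C3a fragment, read 7.80, 8.16 and 7.75 on the NS arrays and 7.09, 7.33 and 7.30 on the p300 siRNA arrays (-0.66, SE 0.0948, adjusted p = 0.0025), and its call held. C3 itself fell by 0.58 and the inhibitor gene Serping1 by 0.38, and both were lost only without experiment 3 (adjusted p = 0.0554 and 0.105). Cfp, properdin, fell by 0.38 and C5ar1 by 0.37, and both were lost in each of the 9 left-out fits (adjusted p up to 0.321). All 3 Fc gamma receptors measured lay below 0 and 2 of them fell (66.7%, against 2.37%): Fcgr1a read 7.98, 8.62 and 8.24 against 7.24, 7.78 and 7.50 (-0.77, SE 0.0864, adjusted p = 7.32e-04, held), and Fcgr2b fell by 0.59 (lost without experiment 3, adjusted p = 0.138, and 2, 0.0693). Of 20 integrin subunits 3 fell (15%, against 2.37%) and 3 lay above 0: Itgb2, the leukocyte beta chain, by 0.62 (lost only without experiment 3, adjusted p = 0.0554), Itgam by 0.48 and Itgb3 by 0.41 (lost without experiment 2, 0.148, or 3, 0.258). Spi1, the myeloid factor PU.1, fell by 0.35 and was lost without each experiment in turn (adjusted p 0.0614 to 0.386).

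Matrix and growth factor genes fell in part. Of 33 extracellular matrix and matrix protease genes 5 fell (15.2%, against 2.37% of all genes), 0 rose, and 31 lay below 0 (median -0.16). Mmp9, a gelatinase, read 10.52, 10.55 and 10.14 on the NS arrays and 9.73, 9.78 and 9.38 on the p300 siRNA arrays: the difference was -0.79, -0.77 and -0.76 in the 3 experiments, and the call (adjusted p = 0.00163) held. Mmp3, stromelysin 1, fell by 0.31, and Mmp8, a collagenase of neutrophils, by 0.32, both lost without each experiment in turn (adjusted p 0.0514 to 0.414). Mmp2 had a difference of -0.16 (adjusted p = 0.0534). Of 32 TGF-beta, BMP and SMAD genes 3 fell (9.38%, against 2.37%): Tgfbi, a matrix protein induced by TGF-beta, by 0.69 (lost without experiment 3, adjusted p = 0.16), Inhba, a subunit of activin, by 0.45 (lost without 2, 0.157, and 3, 0.202) and the co-receptor gene Tgfbr3 by 0.28 (lost in all 9 left-out fits, up to 0.221). The list of Notch, VEGF, PDGF and ErbB signalling, which also held binding proteins of insulin-like growth factors, had 45 genes measured, and 3 fell (6.67%, against 2.37%). Of these only Egfr belongs to the pathways in the list's name. Igfbp5, which binds insulin-like growth factors, read 11.31, 11.28 and 11.21 against 10.87, 10.65 and 10.79 (-0.49, SE 0.0630, adjusted p = 0.00138, held), Igfbp4 fell by 0.42 (lost without 2, 0.0614, and 3, 0.193) and Egfr by 0.34 (lost without each experiment, up to 0.303).

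The largest rise was 1.52-fold against 2.11-fold for the largest fall, and none of the named rises held. Cox6b2, a subunit of cytochrome c oxidase best known from testis, read 9.23, 9.15 and 9.22 on the NS arrays and 9.58, 9.91 and 9.93 on the p300 siRNA arrays (0.61, SE 0.0924, adjusted p = 0.00346). Nnat, an imprinted gene for a small membrane protein, read 11.54, 11.52 and 11.39 against 11.83, 12.07 and 11.89 (0.45, SE 0.0621, adjusted p = 0.00209). Amd1, which makes the aminopropyl donor of polyamine synthesis, read 9.37, 9.55 and 9.38 against 9.81, 9.93 and 9.98 (0.48, SE 0.0698, adjusted p = 0.00293). These 3 did not overlap between groups and lost the call only without experiment 3 (adjusted p = 0.107, 0.0821 and 0.106). Ina, an intermediate filament protein of neurons, rose by 0.57, Fkbp1b, which binds the ryanodine receptor, by 0.54, and Gng13, a G protein gamma subunit, by 0.45. H19, an imprinted noncoding RNA, read 10.24, 9.92 and 9.99 against 10.38, 10.51 and 10.68 (0.47), with differences of 0.14, 0.59 and 0.69 by experiment. The H19 call was also lost when the probe sets of each gene were averaged. The vesicle gene Syt11 and Plekhb1 rose by 0.50 each, Abat, which breaks down GABA, and Nipsnap1, a mitochondrial protein, by 0.41 each, Tmem80 by 0.40, and Hebp2 and Tma7 by 0.39 each. Each of these 11 was lost without experiment 3 (adjusted p 0.107 to 0.444), and 9 of them also without experiment 2 (0.0504 to 0.208).

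Ribosomal protein genes, whose products build the ribosome, lay slightly above 0. Of 27 listed genes 3 rose (11.1%, against 0.765% of all genes), 25 lay above 0 and the median was 0.12, with 0.13, 0.04 and 0.12 by experiment. Rps9 rose by 0.22, Rpl4 by 0.17 and Rpl37l1 by 0.14; each was lost without each experiment in turn (adjusted p 0.0664 to 0.344). Probe sets of ribosomal genes can share sequence with processed copies, so the assignment to 1 gene is uncertain. By symbol, 35 of 39 large-subunit genes and 25 of 25 small-subunit genes lay above 0, against 7554 of 14506 genes. Of these families 5 (12.8%) and 2 (8.00%) rose, against 0.765% of all genes, and their medians in experiment 2 were 0.04 and 0.05.

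**Figure D4:**
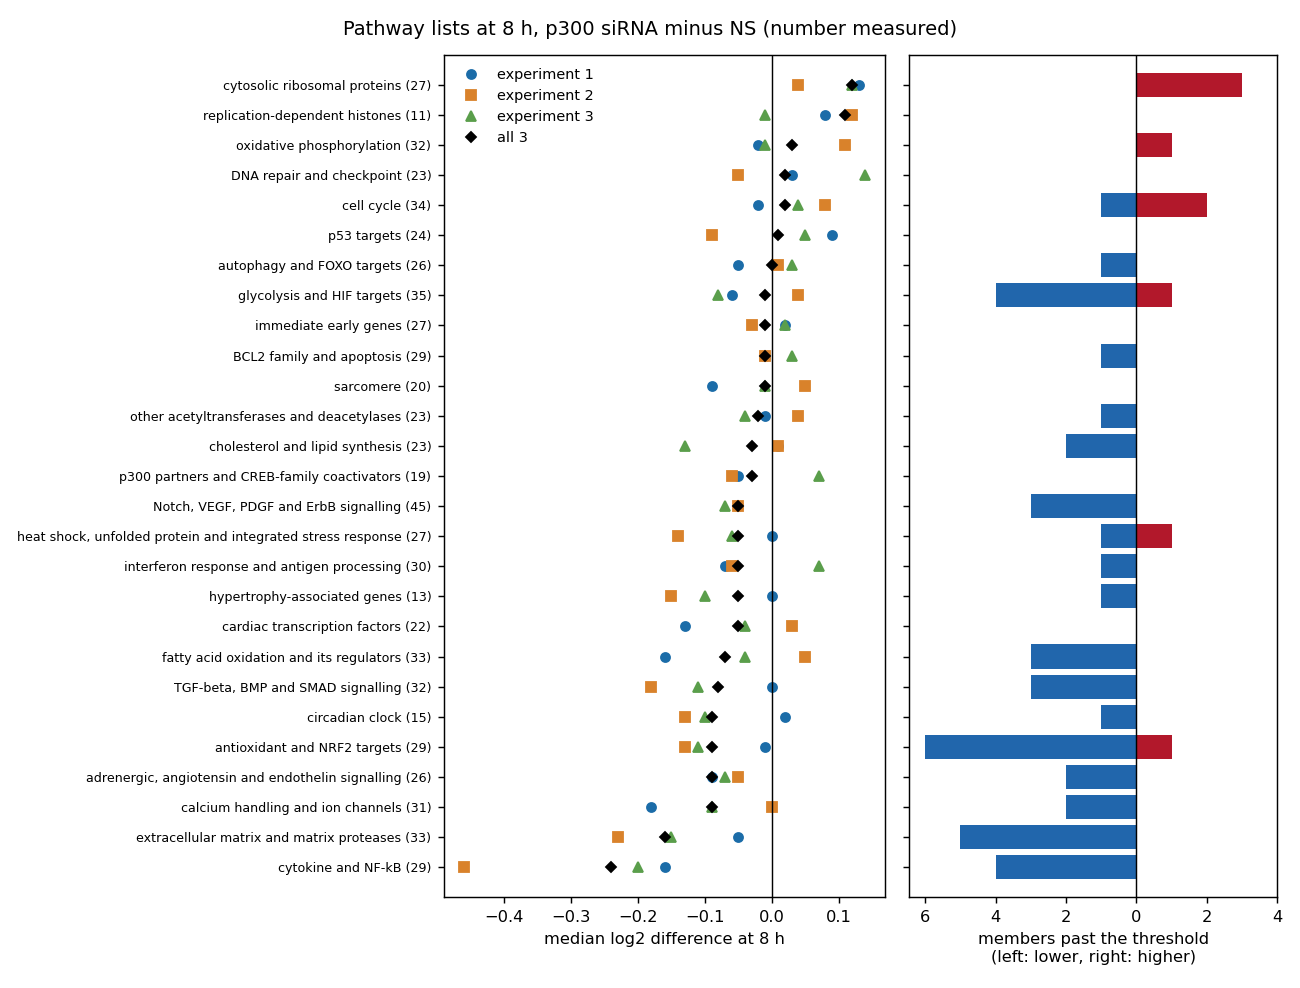
Left, median log2 difference at 8 h (x axis) of each pathway list, in each experiment and over all 3, with the number of genes measured in brackets. Right, the number of members that fell (blue) and rose (red) at an adjusted p under 0.05; cytokine and NF-kB genes have the lowest median, -0.24, and ribosomal protein genes the highest, 0.12.

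The 6 lists for p300 partners, related enzymes and the contractile myocyte held 4 calls, all falls, and 3 of these lists had none. The shares that fell ran up to 7.69%, against 2.37% of all genes. Called genes outside the lists are not in this count, such as Fkbp1b, which binds the ryanodine receptor and rose by 0.54. None of 19 genes for p300 partners and related coactivators was called (median -0.03), nor any of 22 cardiac transcription factors (median -0.05) or 20 sarcomere genes (median -0.01). Srf, a muscle transcription factor, came nearest: it read 11.87, 11.82 and 11.92 on the NS arrays and 11.64, 11.67 and 11.60 on the p300 siRNA arrays (-0.23, adjusted p = 0.0519). Of 23 other acetyltransferases and deacetylases 1 fell, Sirt5, a mitochondrial deacylase (-0.39, lost without experiment 1, adjusted p = 0.181, and 3, 0.35). Of 13 hypertrophy-associated genes 1 fell, Spp1, the secreted protein osteopontin (-0.47, lost without 2, 0.118, and 3, 0.128), which macrophages also make. Among the genes of calcium handling and ion channels, 31 were measured and 2 fell: Gem, a small GTPase that inhibits L-type calcium channels, read 8.61, 8.86 and 8.63 against 8.36, 8.29 and 8.05 (-0.47, lost without 2, 0.0708, and 3, 0.18), and Kcnq1, a potassium channel, fell by 0.30 (lost without 1, 0.19, and 3, 0.329). In this list 27 of 31 lay below 0, against 6952 of 14506 genes.

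The genes of alpha-1 adrenergic receptors, which respond to noradrenaline, held 2 falls. Of 26 adrenergic, angiotensin and endothelin genes 2 fell (7.69%, against 2.37% of all genes). Adra1b read 8.77, 8.90 and 9.17 on the NS arrays and 8.15, 8.37 and 8.72 on the p300 siRNA arrays (-0.53, lost without experiment 1, adjusted p = 0.145, and 2, 0.115, and without the p300 siRNA array of experiment 3, 0.21), and Adra1a fell by 0.40 (lost without 1, 0.0972, and 3, 0.459). Gnai2, an inhibitory G protein alpha subunit, had a large difference in some experiments only. It read 13.44, 13.43 and 13.44 on the NS arrays and 13.43, 11.99 and 12.08 on the p300 siRNA arrays, which is -0.01, -1.44 and -1.36 by experiment (mean -0.94, SE 0.263, adjusted p = 0.0704). The same split stood at 0 h, with -0.01, -1.67 and -1.55.

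The lists of DNA damage and cell death genes, which Dox engages through DNA breaks, held 0 to 3 calls each, where 3.14% of all genes were called. None of 24 p53 targets was called (median 0.01); Bax, a killer protein of mitochondria, had a difference of 0.18 (adjusted p = 0.19). None of 23 DNA repair and checkpoint genes was called (median 0.02), and of 29 BCL2 family and apoptosis genes 1 fell (3.45%, against 2.37% of all genes), Bok, a BAX relative (-0.37, lost without experiment 1, adjusted p = 0.115, and 3, 0.201). Of 34 cell cycle genes 2 rose (5.88%, against 0.765%) and 1 fell (2.94%, against 2.37%): Ccne2, cyclin E2, rose by 0.43, Aurka, a mitotic kinase, by 0.41, and Ccnd1, cyclin D1, fell by 0.40. Ccne2 and Aurka were lost without each experiment in turn (adjusted p 0.0598 to 0.373) and Ccnd1 without 2 (0.127) and 3 (0.3). None of 27 immediate early genes (median -0.01) and none of 11 replication-dependent histone genes (median 0.11) was called.

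Antioxidant and metabolic genes held falls and single rises. Of 29 antioxidant and NRF2 target genes 6 fell (20.7%, against 2.37% of all genes) and 1 rose (3.45%, against 0.765%). Mt1, a metallothionein that binds zinc and copper, read 12.98, 12.83 and 12.69 on the NS arrays and 12.75, 12.25 and 12.09 on the p300 siRNA arrays (-0.47, SE 0.0730, adjusted p = 0.00381), and Mt2A fell by 0.30. Sod3, the extracellular superoxide dismutase, fell by 0.39, Nqo1, a quinone reductase, by 0.38, Gpx3, a secreted glutathione peroxidase, by 0.30, and Ftl1, ferritin light chain, by 0.14. Prdx3, the mitochondrial peroxiredoxin, rose by 0.20. Without experiment 3 none of the 7 passed (adjusted p from 0.0755 for Mt1 to 0.4 for Prdx3), 2 of them passed without experiment 2, and Prdx3 (0.0636) and Ftl1 (0.053) did not pass without experiment 1. Of 35 glycolysis and HIF target genes 4 fell (11.4%, against 2.37%) and 1 rose (2.86%, against 0.765%). Aldoc, an aldolase, read 11.40, 11.49 and 12.17 against 10.74, 11.14 and 11.61 (-0.53, adjusted p = 0.00319): the call held but was lost with the experiment as a random effect (0.183), and the groups overlapped. Pgam2, the muscle phosphoglycerate mutase, fell by 0.59, Ndrg1 by 0.36, and the glucose transporter gene Slc2a1 by 0.24, while Car9, a carbonic anhydrase, rose by 0.33. None of these 4 passed without experiment 3 (adjusted p 0.121 to 0.318) or without experiment 1 (0.0657 to 0.0975), and Slc2a1 and Car9 did not pass without experiment 2 (0.0868 and 0.226).

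Of 33 fatty acid oxidation genes and regulators 3 fell (9.09%, against 2.37% of all genes): Angptl4, an inhibitor of lipoprotein lipase, by 0.44, Lpl, that lipase, by 0.28, and Ucp2, an inner membrane carrier, by 0.17, none of which passed without experiment 3 (adjusted p 0.197 to 0.315). Without experiment 1 Angptl4 (0.153) and Ucp2 (0.0628) did not pass, and without experiment 2 Lpl (0.144) and Ucp2 (0.0794). Of 32 oxidative phosphorylation genes 1 rose (3.12%, against 0.765% of all genes), the complex I gene Ndufa1 (0.39, lost without experiment 2, adjusted p = 0.0548, and 3, 0.325). Of 23 cholesterol and lipid synthesis genes 2 fell (8.70%, against 2.37%), Fads1, a desaturase (-0.38), and Abcg1, a cholesterol exporter (-0.26). Both were lost without 3 (0.338 and 0.339) and without 1 (0.0715 and 0.112), and Abcg1 also without 2 (0.103). The heat shock and unfolded protein list, with 27 genes measured, had 1 fall (3.70%, against 2.37%), the co-chaperone gene Bag3 (-0.30, lost without 2, 0.0753, and 3, 0.295). It also had 1 rise (3.70%, against 0.765%), the mitochondrial co-chaperonin gene Hspe1 (0.23, lost without each experiment, up to 0.242). Of 15 clock genes 1 fell (6.67%, against 2.37%), Nr1d1, the repressor REV-ERB alpha (-0.29). Of 26 autophagy and FOXO genes 1 fell (3.85%, against 2.37%), the lysosomal protease gene Ctsd (-0.12). Both were lost without each experiment in turn (up to 0.441). Of 30 interferon response and antigen processing genes 1 fell (3.33%, against 2.37%), Cd74, the invariant chain of MHC class II, which macrophages also make (-0.39, adjusted p = 0.0499, lost without 1, 0.246, and 3, 0.475).

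The knockdown was set beside the same comparison at 0 h, which shares no array with it but comes from the same 3 experiments. At 0 h 390 genes (2.69%) were called, 289 lower (1.99%) and 101 higher (0.696%). Both times called 182 genes, 163 lower and 19 higher, which is 40.0% of the 8 h calls and 46.7% of the 0 h calls, and 0 were called in opposite directions. Of the 455 genes called at 8 h, 436 (95.8%) had the same sign at 0 h, against 64.2% of all genes. The genes lower at 8 h had a median of -0.32 at 0 h, near their -0.38 at 8 h, and those higher at 8 h a median of 0.13 at 0 h against 0.33. Because the genes were chosen by their 8 h values, larger medians at 8 h are favoured, and no weaker effect at 0 h can be read from them. Chi3l1 had a difference of -1.21 at 0 h, Pla2g2a -1.10, Cxcl11 -0.89, Mmp9 -0.84 and Nnat 0.77. The 0 h count fell to 3 without the block, to 111 without experiment 2 and to 17 without experiment 3.

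**Figure D5:**
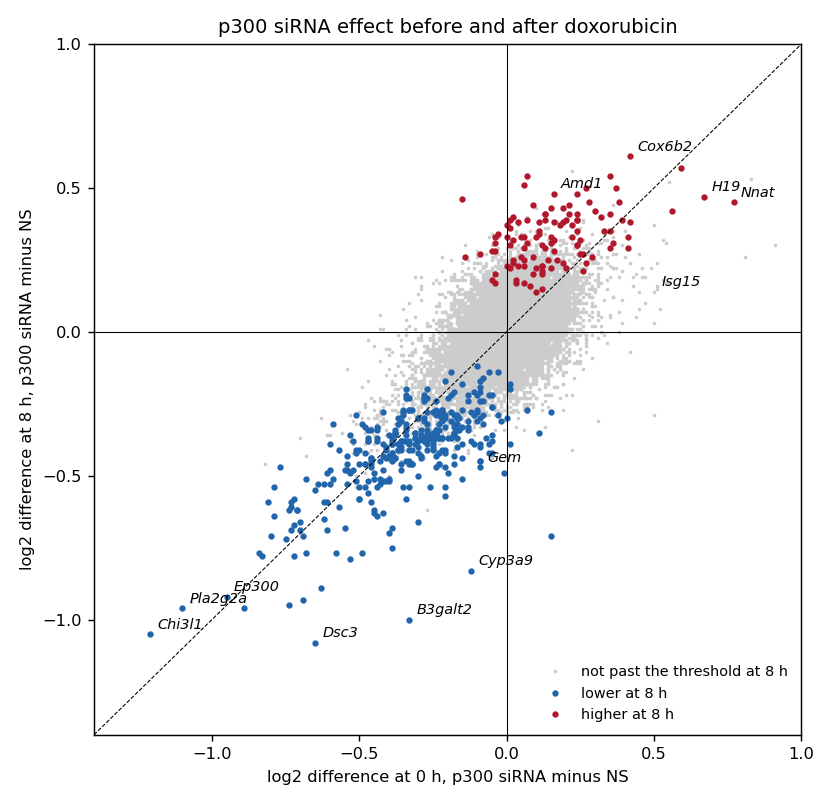
Log2 difference between p300 siRNA and NS cells at 8 h (y axis) against the same at 0 h (x axis), 1 point per gene, with the dashed line where both are equal. Blue and red points were called lower and higher at 8 h; most of them keep their sign at 0 h, while B3galt2 and Cyp3a9 lie far below the line.

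Whether the knockdown effect differed between 8 h and 0 h was tested as the difference of the 2 differences. No gene passed: the smallest adjusted p was 0.902, and 639 genes had an unadjusted p under 0.05 (228 without the block). The 5 genes with the smallest p were Uqcrb, B3galt2, Ctdsp1, Cyp3a9 and Tcp11l2, and their values are given as a description. B3galt2 had -0.33 at 0 h and fell by 1.00 at 8 h (difference -0.68, SE 0.135), and its NS level of 9.46, 9.44 and 9.49 at 0 h was lower by 1.91 at 8 h of Dox (adjusted p = 2.48e-09). Cyp3a9 had -0.12 at 0 h and -0.83 at 8 h: from 0 to 8 h, drug and time together, its change was 0.60 in NS cells (adjusted p = 3.21e-04) and -0.11 in p300 siRNA cells (adjusted p = 0.427). These 2 changes did not differ past the threshold, and its 8 h readings were low. Uqcrb, a subunit of respiratory complex III, had -0.13 at 0 h and 0.12 at 8 h. Ctdsp1, a small phosphatase, had 0.15 and -0.28, and Tcp11l2 -0.14 and 0.26. Isg15, named after its values were seen, is a ubiquitin-like protein induced by interferon: it was higher at 0 h (0.50, adjusted p = 0.00757) and had 0.14 at 8 h (adjusted p = 0.467), with -0.07, 0.06 and 0.43 by experiment. Of the 30 interferon genes 4 were called higher at 0 h, where 0.696% of all genes were, and 0 at 8 h. The median of that list was 0.17 at 0 h, with 3 of 30 below 0, and -0.05 at 8 h, with 19 of 30 below 0. The median of its differences between times was -0.23.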

How the data were processed

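Transcript levels came from 12 Affymetrix whole-transcript arrays. Each probe set has 1 deposited intensity per array, linear, from 8.05 to 25315; per the submitters' processing notes they were made with Affymetrix Expression Console 1.1 and RMA, and how they became linear is not given in the sources used here. Log2 was taken here. Of 29214 probe sets, 15310 had 1 gene symbol in the platform annotation, 323 several and 13581 none; the brightest probe set was used for the 527 genes with more than 1, which left 14506 genes, 14480 of them in a current RefSeq gene table. No level filter was applied.

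Groups and replicate numbers were read from the titles. Same-numbered arrays deviated together from their group means (18 pairs, median r 0.504, lowest 0.172; other pairs -0.271; 12 of 12 arrays closest to their own number), and the series states 3 experiments, so the number was used as a block. The fit used all 12 arrays, 4 group means and the block (R 4.3.3, limma 3.58.1; eBayes took a mean-variance trend; two-sided; 6 residual degrees of freedom), with Benjamini-Hochberg adjustment over all genes. The script was tested on simulated data. Precision is limited by the number of arrays: the median SE of the 8 h difference was 0.0785 (0.0951 without the block).

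Genes named were Ep300, the 15 largest called rises and falls with 1 sign in the 3 experiments and a level above the median (8.57), up to 4 called members per list and direction and 2 not called, and the 5 with the smallest p for the difference between times. Outside that rule, 27 genes and 8 families were chosen after their values were seen. The comparison and the 33 lists were chosen with earlier results of these data known. Promoters are RefSeq's (GRCr8). Figures used matplotlib 3.10.9.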

Additional observations from a re-analysis of the deposited data

Results flagged for a closer look

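The genes Ctdsp1 and Tcp11l2, called at 8 h, had the opposite sign at 0 h in every experiment. Both were named because they were among the 5 genes with the smallest p for the difference between times, a choice that favours opposite signs. Only named genes were checked for this pattern. Ctdsp1, a small phosphatase that acts on RNA polymerase II, had -0.28, -0.22 and -0.35 at 8 h and 0.08, 0.20 and 0.15 at 0 h, a difference between times of -0.43. Tcp11l2 had 0.16, 0.33 and 0.29 at 8 h and -0.11, -0.12 and -0.20 at 0 h, a difference of 0.40. The test of that difference over all genes gave an adjusted p of 0.902 at the lowest, so neither passed it. Both 8 h calls were lost without each experiment in turn (adjusted p 0.0769 to 0.35 for Ctdsp1 and 0.0575 to 0.365 for Tcp11l2). Among the 13581 probe sets without a gene symbol, which no comparison above used, 132 (0.972%) were called at 8 h, 59 lower and 73 higher, from -1.27 to 0.95; they were not named here.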

How the results depend on the processing

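Of the 111 named genes called at 8 h, 111 kept their direction in all 20 alternatives; 104 lost the call without the replicate block, 39 kept it with the block as a random effect, and 39, 61 and 89 lost it without experiment 1, 2 and 3. The main 455 calls (344 lower, 111 higher) became 7 (7 and 0) with no replicate block, 92 (80 and 12) with the block as a random effect, 136 (125 and 11) with only the 8 h arrays and the block, 0 (0 and 0) with those arrays and no block, where 0 genes passed by limma, and 254 (197 and 57) with eBayes without a trend. The fit without the block had 1155 genes at an unadjusted p under 0.05, 709 lower and 446 higher. Leaving out arrays or experiments gave 35 to 397 calls, 31 to 312 lower and 4 to 117 higher. Level filter, centring, quantile normalisation, an offset of 32, averaged probe sets and robust eBayes gave 398, 493, 423, 408, 432 and 462 calls, and the share of lower calls was 75.6%, 71.2% when centred and 72.1% after quantile normalisation. With averaged probe sets the calls of H19, Rps9, Rpl4, Cd74 and Dcn were lost. The 390 calls at 0 h became 3 with no replicate block, 125 with a random block and 17 to 493 when arrays were left out. The difference between times had 0 calls throughout. Ep300 kept -0.92 with only the 8 h arrays and no block but lost its call (adjusted p = 0.216). Among the named genes the sign reversed in 6 of 3488 values, all of genes not called and with arrays left out: Ifit2 ran from -0.45 to 0.01, Alas2 from -0.16 to 0.01, Crebbp from -0.02 to 0.08 and Isg15 from -0.01 to 0.25. Medians of gene lists that lay between -0.07 and 0.03, such as p53 targets (0.01, and -0.05 without experiment 1), also changed sign in some alternatives. The causes of these shifts were not tested, beyond fewer arrays in the left-out fits. No value depends on a depth, which arrays do not have, and genes below the median level were kept (116 of the 455 calls).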
